A study of Mus musculus with 20 samples.

Results

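The 9 genes described here encode 3 neuropeptides and 6 of their receptors: neuropeptide Y (Npy) with the receptors Y1 (Npy1r), Y2 (Npy2r) and Y5 (Npy5r), somatostatin (Sst) with receptors 1 and 2 (Sstr1, Sstr2), and cholecystokinin (Cck) with the CCK-B receptor (Cckbr). They were chosen by name, not by their values, and all 9 had a row among the 12988 genes of the deposited count table. The tissue was the anterodorsal BNST (adBNST), a division of a forebrain structure, the bed nucleus of the stria terminalis, microdissected from brain slices of mice under ketamine. Mice of both sexes entered the study at 7 to 9 weeks of age and were kept under control conditions or exposed to chronic variable mild stress, a 6-week programme of randomized minor daily stressors. This made 4 groups of 15 mice, control females, stressed females, control males and stressed males. Stressed mice were killed 1 hour after their final stressor, wet bedding, so that the 6-week programme and the last stressor cannot be told apart. All groups received ketamine, and the strain was not given in the sources used here. Each library was made from RNA of 3 pooled mice, so that 20 libraries were measured, 5 from each group, and differences between single mice cannot be seen.

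The BNST is a group of nuclei of the extended amygdala, most of whose neurons release GABA, and it is known for its part in anxiety and in the response to stress. NPY, somatostatin and CCK are made as larger precursors, cut by proprotein convertases, and released from dense-core vesicles, in forebrain often by GABA neurons. The NPY receptors and the somatostatin receptors couple to inhibitory G proteins (Gi/o), which lower cyclic AMP and open potassium channels. The Y1 and Y5 receptors act mainly on the receiving cell, whereas the Y2 receptor sits largely on nerve endings and limits release. The CCK receptors couple to Gq, which raises calcium through phospholipase C. NPY is known as an anxiety-reducing peptide and CCK, through the CCK-B receptor, as an anxiety-promoting one.

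The promoters of the 3 ligands and of Sstr2 are shown because they carry the start sites of the genes with the highest and the most variable levels below and because Sst and Sstr2 share a motif. Each runs from 250 bases before to 50 bases after the gene's start in RefSeq, 5′ to 3′ on the gene's strand, on build GRCm38.p6. Gene positions given further below come from another annotation, whose starts differ from these for some genes, among them Sst and Sstr2. Capitals mark the cyclic AMP response element TGACGTCA or the E-box CACGTG, each of which reads the same on both strands. The Sst promoter lies at chr16:23890795-23891094 on the minus strand, that of Sstr2 at chr11:113619077-113619376 on the plus strand, that of Cck at chr9:121495645-121495944 on the minus strand and that of Npy at chr6:49822460-49822759 on the plus strand.
Sst: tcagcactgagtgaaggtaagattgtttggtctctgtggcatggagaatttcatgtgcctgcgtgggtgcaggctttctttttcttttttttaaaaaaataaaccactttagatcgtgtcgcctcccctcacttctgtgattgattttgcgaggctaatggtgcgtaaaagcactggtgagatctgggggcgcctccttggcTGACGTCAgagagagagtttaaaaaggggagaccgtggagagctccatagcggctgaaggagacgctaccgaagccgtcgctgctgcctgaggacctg
Sstr2: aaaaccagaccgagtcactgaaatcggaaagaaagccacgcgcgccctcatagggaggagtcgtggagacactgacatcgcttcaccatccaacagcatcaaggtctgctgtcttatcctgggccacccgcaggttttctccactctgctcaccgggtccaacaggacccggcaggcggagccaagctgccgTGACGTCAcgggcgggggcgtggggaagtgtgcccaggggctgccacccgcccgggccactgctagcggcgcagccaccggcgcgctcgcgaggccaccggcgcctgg
Cck: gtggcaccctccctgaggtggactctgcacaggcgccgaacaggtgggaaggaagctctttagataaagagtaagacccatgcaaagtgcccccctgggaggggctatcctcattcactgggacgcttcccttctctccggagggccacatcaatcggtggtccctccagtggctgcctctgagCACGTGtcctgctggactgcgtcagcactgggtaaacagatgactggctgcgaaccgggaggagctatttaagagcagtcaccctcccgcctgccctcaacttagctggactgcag
Npy: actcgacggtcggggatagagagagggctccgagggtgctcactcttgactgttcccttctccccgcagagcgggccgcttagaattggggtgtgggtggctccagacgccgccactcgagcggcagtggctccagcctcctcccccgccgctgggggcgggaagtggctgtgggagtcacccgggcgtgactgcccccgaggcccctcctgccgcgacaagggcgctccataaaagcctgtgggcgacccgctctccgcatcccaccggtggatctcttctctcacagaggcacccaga
TGACGTCA was found at bases -48 to -41 of Sst and -58 to -51 of Sstr2, counted from the start site, and in 1.79% of the 32851 promoters of the table. CACGTG was found at bases -66 to -61 of Cck, and also in the promoters of Cckbr (-106 to -101) and Npy5r (-40 to -35). It occurred in 7.15% of all promoters. Neither run of letters was in the windows of Npy, Npy1r or Npy2r, and Sstr1 had no promoter entry. These are matches of letters, and no binding was measured.

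Libraries held between 2707881 counts (control female 4) and 33595388 counts (stressed male 4). Levels below are counts divided by library size in CPM, with library sizes scaled by the trimmed mean of M values (TMM), and differences are log2 fold changes with their standard error (SE) from edgeR's quasi-likelihood test, adjusted by Benjamini and Hochberg over all 12988 genes. All 12 BNST marker genes fixed for the check of the tissue had a row, and their summed level was 2690 to 3090 CPM over the 20 libraries. Gad2 and Gad1, with means of 1145 and 705 CPM in control females, made up much of that sum. It does not show that the share of BNST was equal between libraries. For stress in males 5 of the 12 had positive and 7 negative values. Meis2 (higher) and Crh, Nts and Cartpt (lower) had an unadjusted edgeR p under 0.05, which 15.5% of all genes reached. Gad1, the GABA-synthesizing enzyme, stood at 628 to 757 CPM, and Slc17a7, the vesicular glutamate transporter of cortex, at 1.8 to 4.62 CPM. Markers of neighbouring regions were present as well, and those of striatum differed between the male groups. The summed level of all 14 striatal markers was 2510 to 3170 CPM in control males and 3600 to 5640 CPM in stressed males, without overlap, and 2740 to 5000 CPM in control females and 2650 to 5600 CPM in stressed females. Of the thalamic markers 8 of 10 had a row, and stressed female 2 had the highest sum, 278 CPM against 153 to 165 CPM in the rest of its group. The thalamic factor Tcf7l2 was at 28.1 CPM in that library. The part of these markers in the results on the 9 genes was not tested. The relations to marker scores and the values with the striatal score as a covariate, given below, are descriptions. For stress in males the striatal sums did not overlap, so that the covariate cannot separate these markers from stress. In controls the median sums were 2620 CPM in males and 4580 CPM in females, so that it separates them from sex only in part. In RNA from whole tissue, fewer cells that express a gene and less RNA per cell cannot be told apart.

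Compared per kilobase (kb) of exon, so that levels of different genes can be set beside each other, Sst and Npy stood far above the rest. The mean level over the 20 libraries was 322 CPM per kb for Sst, 77.2 for Npy and 12.1 for Cck. Among the receptors it was 13.5 CPM per kb for Npy2r, 10.6 for Sstr1, 5.06 for Cckbr, 4.99 for Sstr2, 4.26 for Npy1r and 2.1 for Npy5r. Sst exceeded Npy, and Npy exceeded Npy2r, in all 20 libraries without overlap of their ranges. Sstr1 was above Cckbr, and Npy1r above Npy5r, in all 20 libraries as well. The ranges of Npy2r, Cck and Sstr1 overlapped, as did those of Cckbr, Sstr2 and Npy1r, so that the order within each of these sets does not stand out from the spread between libraries. In CPM without division by length, Sst was among the top 6.38% of the genes in the table.

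**Figure D1:**
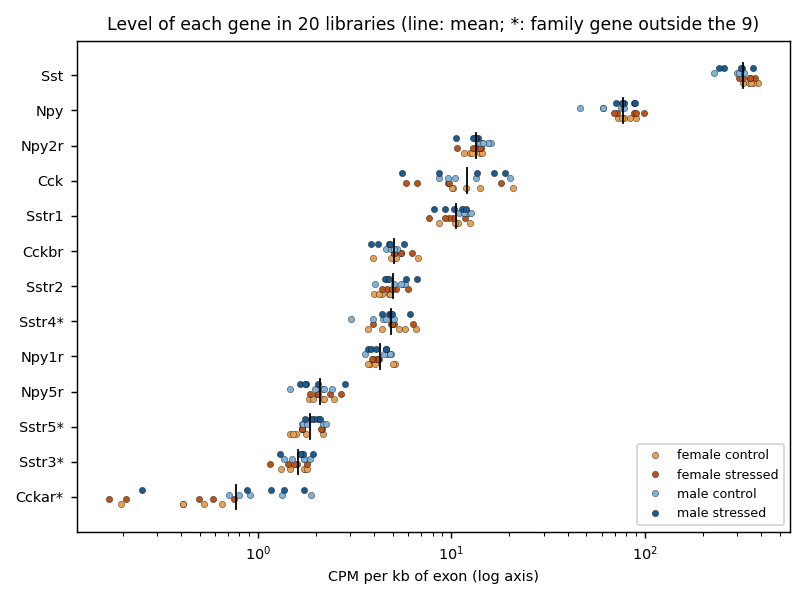
Levels of the 9 genes, and of Sstr3, Sstr4, Sstr5 and Cckar (marked with an asterisk), in CPM per kb of exon on a log axis, with a point for each of the 20 libraries. Sst (mean 322 CPM per kb) and Npy (77.2) lie above all other genes without overlap, whereas most neighbouring receptors overlap.

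Of the other genes of the 3 families, Sstr3, Sstr4, Sstr5 and Cckar had a row in the table. The remaining 6 on the list (Pyy, Ppy, Npy4r, Npy6r, Cort and Gast) were not analysed here. Sstr4 reached 4.86 CPM per kb, near Sstr2. Sstr5 and Sstr3 were at 1.86 and 1.61 CPM per kb, and Cckar, the CCK-A receptor, at 0.773 CPM per kb was the lowest of the 13.

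**Figure D2:**
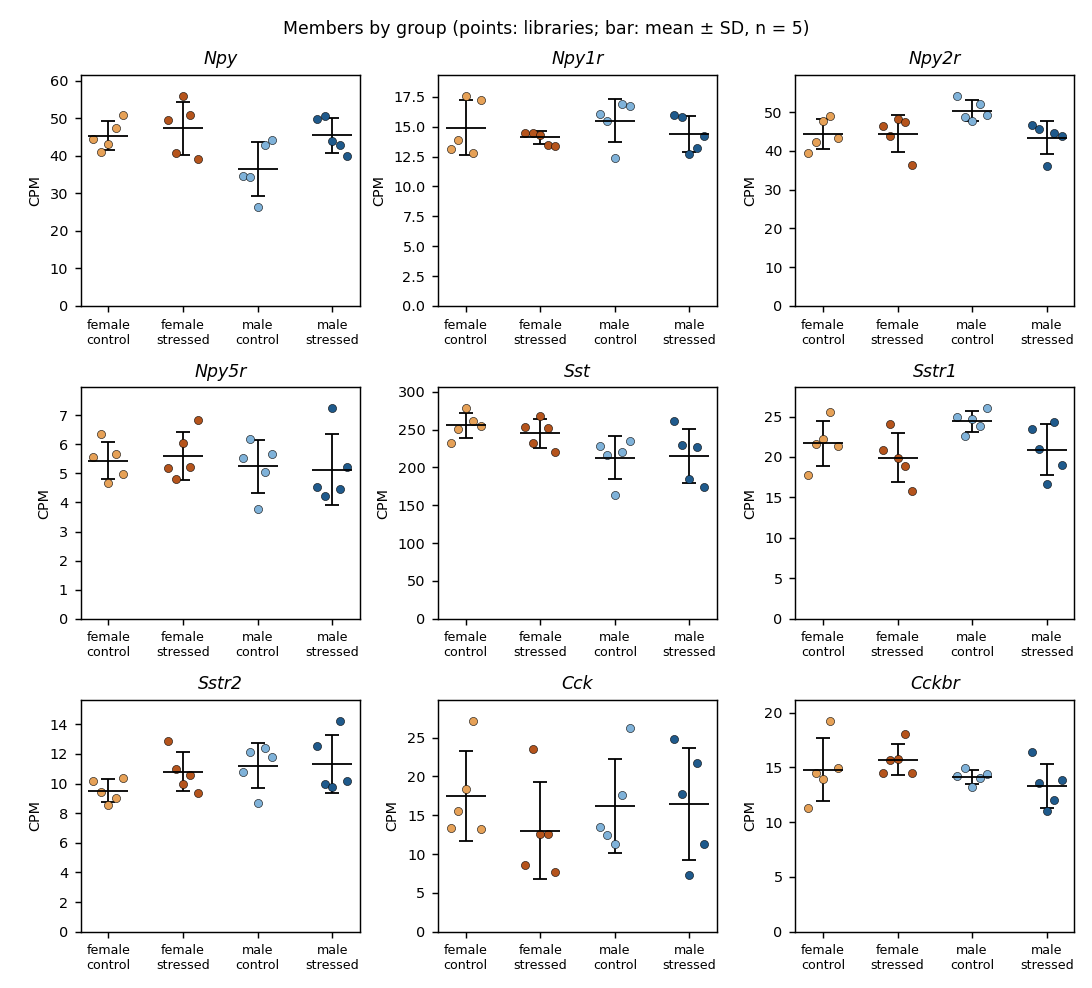
Level in CPM of each of the 9 genes in the 20 libraries, by group, with a point per library and the group mean and SD. The groups of Npy2r in males do not overlap (control 47.7 to 54.3, stressed 36 to 46.8 CPM), and the spread of Cck within each group is wider than any difference between groups.

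No member passed an adjusted p of 0.05 in any of the 5 comparisons made, which were stressed against control mice of each sex, males against females under each condition, and the difference between the stress effects of the sexes (the interaction). The counts of members below are therefore at an unadjusted p under 0.05, each beside the share of all 12988 genes that reached it. In females, stress gave 0 of 9 members, where 7.51% of all genes did and 0% passed after adjustment. In males, stress gave 3 of 9 (Npy, Npy2r and Sstr1), where 15.5% of all genes did and 0.0077% passed after adjustment. Between the sexes in controls it was 3 of 9 (Npy, Sst and Npy2r), against 15.3% of all genes and 0.747% after adjustment. In stressed mice it was 1 of 9 (Cckbr), against 7.06% and 0.077%, and for the interaction 1 of 9 (Npy2r), against 10.4% and 0%. The median log2 difference of the 9 genes was 0.01 for stress in females, -0.11 for stress in males, 0.07 for sex in controls, -0.04 for sex in stressed mice and -0.05 for the interaction. The medians of all genes were within 0.01 of 0. Groups did not overlap in 0 of 9 members for stress in females (1.22% of all genes), 1 of 9 for stress in males (4.3%), 0 of 9 for sex in controls (3.97%) and 0 of 9 for sex in stressed mice (1.27%). The comparisons of stress in males and of sex in controls share the 5 control males, so that their values are set side by side below and not counted as separate observations.

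**Figure D3:**
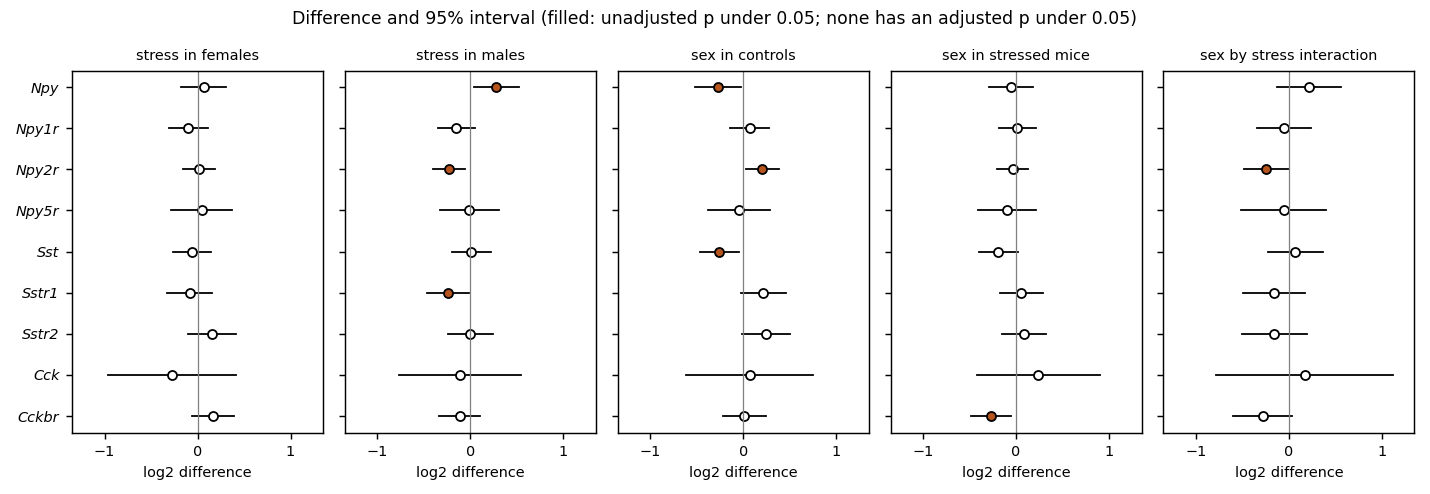
Log2 differences of the 9 genes in the 5 comparisons, with 95% intervals from the edgeR fit. Intervals of Npy, Npy2r and Sstr1 leave 0 out for stress in males, all are narrower than that of Cck, and no adjusted p is under 0.05.

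Npy was lowest in control males. Its gene lies at chr6:49822710-49829507 on the plus strand (GRCm38) and its RNA stood at 45.4 ± 3.92 CPM (SD, n = 5) in control females, 47.4 ± 7.07 CPM in stressed females, 36.5 ± 7.28 CPM in control males and 45.5 ± 4.6 CPM in stressed males. The 5 control males measured 34.6, 34.3, 26.3, 42.9 and 44.2 CPM, and the 5 stressed males 49.9, 50.7, 44.1, 43.0 and 40.0 CPM. Control males 1 to 3 thus lay below every stressed male, whereas control males 4 and 5 lay within the range of the stressed ones. The log2 difference was 0.28 (SE 0.11), with an unadjusted p of 0.0241 and an adjusted p of 0.237. The 5 control females measured 44.5, 41.0, 43.1, 47.4 and 51.0 CPM, so that 3 of 5 control males were below all of them. Control males against control females gave -0.27 (SE 0.12, adjusted p = 0.272). Without control male 3, the lowest library, the value for stress in males was 0.19 and that for sex in controls -0.19. Without control male 5, the highest of its group, they were 0.36 and -0.35. In females the stress difference was 0.06 (95% interval -0.18 to 0.31), and the interaction was 0.21 (-0.13 to 0.56), so that neither an equal nor a different response of the sexes was shown.

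Npy2r, the receptor on nerve endings that limits NPY release, was the member with the smallest p for stress in males. Its gene lies at chr3:82538383-82548084 on the minus strand. The control males measured 54.3, 48.7, 47.7, 52.1 and 49.3 CPM, and the stressed males 46.8, 45.6, 36, 44.6 and 43.9 CPM. Every stressed male was below every control male, a pattern that 4.3% of all genes had in this comparison in one direction or the other. Means were 50.4 ± 2.71 and 43.4 ± 4.29 CPM, a log2 difference of -0.23 (SE 0.08, unadjusted p = 0.00874), and the adjusted p was 0.163. Stressed male 3, at 36 CPM, was also the library with the highest striatal marker sum (5640 CPM), and without it the difference was -0.16. Without stressed male 1, the highest of its group, it was -0.25. With the striatal marker score in the model as a covariate the difference was -0.10, with an adjusted p of 0.865. Females showed no such separation, with 44.4 ± 3.91 CPM in controls and 44.5 ± 4.87 CPM after stress, a difference of 0.01 (95% interval -0.16 to 0.19). The interaction was -0.24 (SE 0.11, unadjusted p = 0.0441), but its adjusted p was 0.473. Control males lay above control females by 0.21 (SE 0.08, adjusted p = 0.228), with 39.6, 42.3, 47.8, 48.9 and 43.3 CPM in the females. Those 2 groups overlapped, and with the striatal covariate the sex difference was 0.10.

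Npy1r and Npy5r encode the receptors of the receiving cell and lie head to head on chromosome 8, Npy1r at chr8:66697192-66706792 on the plus strand and Npy5r at chr8:66679965-66688128 on the minus strand, with their 5′ ends 9.06 kb apart. Npy1r ranged from 12.4 to 17.6 CPM over the 20 libraries, with group means between 14.1 ± 0.52 CPM in stressed females and 15.5 ± 1.79 CPM in control males. Npy5r had the lowest level of the 9, with group means between 5.13 ± 1.23 CPM in stressed males and 5.61 ± 0.825 CPM in stressed females. The groups of both genes overlapped in all 4 pairwise comparisons. The largest of their differences between 2 groups was that of Npy1r for stress in males, -0.15 (95% interval -0.35 to 0.05, adjusted p = 0.462). For Npy5r the same comparison gave -0.01 (-0.33 to 0.31), so that for both genes neither a change nor its absence was shown. With the striatal score as a covariate the order turned, to -0.05 for Npy1r and -0.29 for Npy5r (adjusted p = 0.972 and 0.786).

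Sst was the most abundant member and had a lower mean in males than in females. The gene lies at chr16:23889573-23890958 on the minus strand, and its mean was 256 ± 16.6 CPM in control females, 245 ± 18.8 CPM in stressed females, 213 ± 28.4 CPM in control males and 215 ± 35.8 CPM in stressed males. Control females measured 232, 251, 278, 262 and 255 CPM, and control males 228, 217, 164, 221 and 235 CPM. Only control male 5 reached into the range of the females, and control male 3 was far below the rest of its group. The sex difference in controls was -0.26 (SE 0.10, unadjusted p = 0.0158, adjusted p = 0.213), and -0.18 without control male 3. In stressed mice it was -0.19 (SE 0.10, adjusted p = 0.719), -0.12 without stressed male 5 and -0.27 without stressed male 1. Stressed females measured 253, 232, 268, 252 and 220 CPM, and stressed males 262, 230, 185, 227 and 174 CPM. The mean thus was lower in males under both conditions, but stressed male 1 was above all but 1 of the stressed females. Stress differences were small next to their intervals, -0.06 (-0.27 to 0.15) in females and 0.01 (-0.20 to 0.22) in males.

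Sstr1 was the somatostatin receptor with the smallest p for stress. The gene, at chr12:58211772-58214444 on the plus strand, measured 25.0, 22.6, 24.7, 23.8 and 26.0 CPM in control males and 23.4, 21.0, 16.7, 24.3 and 19.0 CPM in stressed males. Of the stressed males 3 were below every control male, and stressed males 1 and 4 lay among them. The difference for stress in males was -0.24 (SE 0.11, unadjusted p = 0.0353, adjusted p = 0.281). With the striatal score as a covariate it was 0.02, with the sign turned. Sstr1 was at 21.7 ± 2.79 CPM in control females and 19.9 ± 3.03 CPM in stressed females, a difference of -0.08 (-0.32 to 0.16). Sstr2, at chr11:113619342-113626028 on the plus strand, overlaps Slc39a11 on the opposite strand, and whether the counting used strand is not given in the sources used here. Its group means ran from 9.52 ± 0.777 CPM in control females to 11.3 ± 1.95 CPM in stressed males, and its difference with the smallest p was 0.24 (SE 0.12, adjusted p = 0.341) for sex in controls. Stress differences of Sstr2 were 0.16 (-0.10 to 0.41) in females and -0.0018 (-0.24 to 0.24) in males. Sstr3, Sstr4 and Sstr5 passed the adjusted threshold in 0 of 5 comparisons, and among them the smallest unadjusted p was 0.114, for Sstr4 and stress in males (0.24, SE 0.15).

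Cck, the ligand of the CCK receptors, had the widest spread within groups of the 9 members. The gene lies at chr9:121489824-121495694 on the minus strand. Control females measured 13.3, 15.5, 18.4, 27.1 and 13.2 CPM, stressed females 8.65, 23.5, 12.6, 12.6 and 7.65 CPM, control males 13.5, 12.5, 11.3, 17.6 and 26.2 CPM, and stressed males 24.8, 17.7, 7.3, 21.7 and 11.3 CPM. High and low libraries occurred in every group, and the highest was 3.71 times the lowest. The SD of log2 CPM within groups was 0.576, and 0.216% of all genes had an SD at least as large, whereas the other 8 members had SDs from 0.135 (Npy2r) to 0.243 (Npy5r). The stress difference was -0.28 (SE 0.32, 95% interval -0.97 to 0.41) in females and -0.11 (-0.76 to 0.55) in males, with adjusted p of 0.886 and 0.942. In females it was -0.65 (adjusted p = 0.498) without stressed female 2, the library with the highest thalamic, cortical and hypothalamic marker sums, and -0.11 without stressed female 5, the lowest of its group. The cortical sum rests on 5 of 10 markers and the hypothalamic sum on 6 of 13. Lhx6, which is also on the interneuron list used below, averaged 46.0 CPM in stressed females, where the median hypothalamic sum was 79.4 CPM. For sex in controls the fit gave 0.07, although the mean of the control males (16.2 ± 6.07 CPM) was below that of the control females (17.5 ± 5.77 CPM). For stress in males the fit and the means (16.2 and 16.5 ± 7.22 CPM) also differed in sign, and neither direction is shown.

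Markers of other cells moved with Cck from library to library. After the group means were removed, Cck correlated with the thalamic score (Pearson r = 0.787, Spearman rho = 0.758, n = 20, permutation p adjusted over 63 relations 0.00567 and 0.0046). It also correlated with the astrocyte score (r = 0.843, rho = 0.811, adjusted permutation p = 0.0022 and 0.0041) and the oligodendrocyte score (r = 0.733, rho = 0.707, adjusted permutation p = 0.00646 and 0.0104). Without the 2 libraries farthest from the median, r was 0.812, 0.813 and 0.589 in that order. The scores rest on 8 of 10 thalamic, 11 of 11 astrocyte and 14 of 14 oligodendrocyte markers, and their part in the spread of Cck was not tested. Sstr1 showed a like relation to the astrocyte score (r = 0.855, rho = 0.826, adjusted permutation p = 0.0022 and 0.0041) and to the thalamic score (r = 0.707, rho = 0.716, adjusted permutation p = 0.043 and 0.0115). Its relation to the striatal score was inverse and passed by rho only (r = -0.698, rho = -0.716, adjusted permutation p = 0.0522 and 0.0376). That to the oligodendrocyte score passed by r only (r = 0.593, rho = 0.570, adjusted permutation p = 0.043 and 0.0783). Sst with the astrocyte score passed by rho only (r = 0.481, rho = 0.635, adjusted permutation p = 0.0842 and 0.0383). So did Npy5r with the cortical score of 5 of 10 markers, inversely (r = -0.597, rho = -0.629, adjusted permutation p = 0.0522 and 0.0406). The share of all genes with such relations to the scores was not computed.

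The CCK-B receptor Cckbr, at chr7:105425731-105470898 on the plus strand, varied less than its ligand. Stressed females measured 14.5, 15.7, 15.8, 18.0 and 14.5 CPM and stressed males 16.4, 13.6, 11, 12 and 13.8 CPM. Of the stressed males 4 were below every stressed female, and stressed male 1 was above all but 1 of them. Means were 15.7 ± 1.42 and 13.3 ± 2.04 CPM, a difference of -0.27 (SE 0.10, unadjusted p = 0.0158) with an adjusted p of 0.628. In controls the means were 14.8 ± 2.85 CPM in females and 14.1 ± 0.647 CPM in males, and stress differences were 0.16 (-0.06 to 0.39) in females and -0.12 (-0.34 to 0.11) in males. In females the difference was 0.07 without control female 1 and 0.22 without control female 4. In males it was -0.05 without stressed male 3 and -0.18 without stressed male 1. The highest value, 19.2 CPM, was in control female 4, the library with the fewest counts.

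Cckar, the CCK-A receptor, is no member but had the largest sex difference of the 3 families. Control females measured 1.51, 1.95, 2.41, 1.51 and 0.725 CPM, and control males 3.36, 2.96, 2.6, 4.93 and 6.94 CPM. All control males were above all control females, which 3.97% of all genes showed in this comparison in one direction or the other. The mean was 2.56 times as high in control males and 2.44 times as high in stressed males as in females of the same condition. The log2 difference was 1.41 (SE 0.43, unadjusted p = 0.00357, adjusted p = 0.119) in controls and 1.12 (SE 0.42, adjusted p = 0.628) in stressed mice. In the latter, stressed male 3 at 0.929 CPM lay among the females. Counts were low, from 4 to 222 per library. With only the control groups in the fit the adjusted p in controls was 0.0149, but that fit called more genes over the whole table than the main fit, as given below. With the striatal covariate the difference was 0.64.

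**Figure D4:**
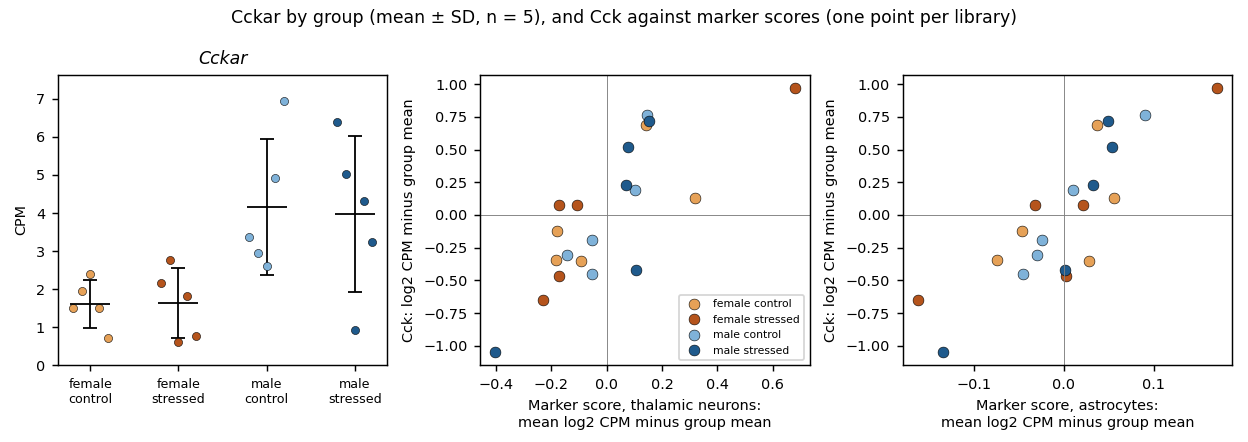
Left, Cckar in CPM by group, with a point per library and the mean and SD (n = 5); middle and right, deviation of Cck (log2 CPM minus group mean) against the deviation of the thalamic and astrocyte marker scores, with a point for each of the 20 libraries. Control males (2.6 to 6.94 CPM) lie above control females (0.725 to 2.41 CPM) for Cckar, and libraries with more Cck also had higher thalamic (r = 0.787) and astrocyte (r = 0.843) scores.

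Of the 3 pairs of ligands, Npy with Sst had the highest correlation from library to library. After removal of the group means, the 2 most abundant, Npy and Sst, correlated over the 20 libraries (r = 0.727, rho = 0.651, permutation p = 0.00061 and 0.00484, adjusted over the 6 pairs tested 0.00366 and 0.0285, and over all 36 pairs of members 0.0110 and 0.0436). Without the 2 libraries farthest from the median of Npy (control males 3 and 5) r was 0.584, and without control male 3 alone 0.582. Sst and Cck gave r = 0.608 and rho = 0.638 (permutation p adjusted over the 6 pairs 0.0465 and 0.0285), and r = 0.60 without 2 libraries. Adjusted over all 36 pairs, Sst and Cck did not pass (permutation p = 0.0583 and 0.0684). The third pair of ligands, Npy and Cck, did not pass (r = 0.353, rho = 0.329, adjusted permutation p = 0.182 and 0.240). Among the receptors, Npy1r and Npy2r had r = 0.412 (rho = 0.414, adjusted permutation p = 0.131 and 0.221), Sstr1 and Sstr2 r = 0.363 (rho = 0.310, 0.182 and 0.240) and the neighbours Npy1r and Npy5r r = -0.185 (rho = -0.284, 0.465 and 0.240). None of these receptor pairs passed. Many genes vary together in these libraries, and of all genes 0.439% had an r with Npy at least as high as that of Sst, and 0.578% an r with Sst at least as high as that of Npy. For Sst and Cck the shares were 3.53% with Sst and 6.95% with Cck.

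**Figure D5:**
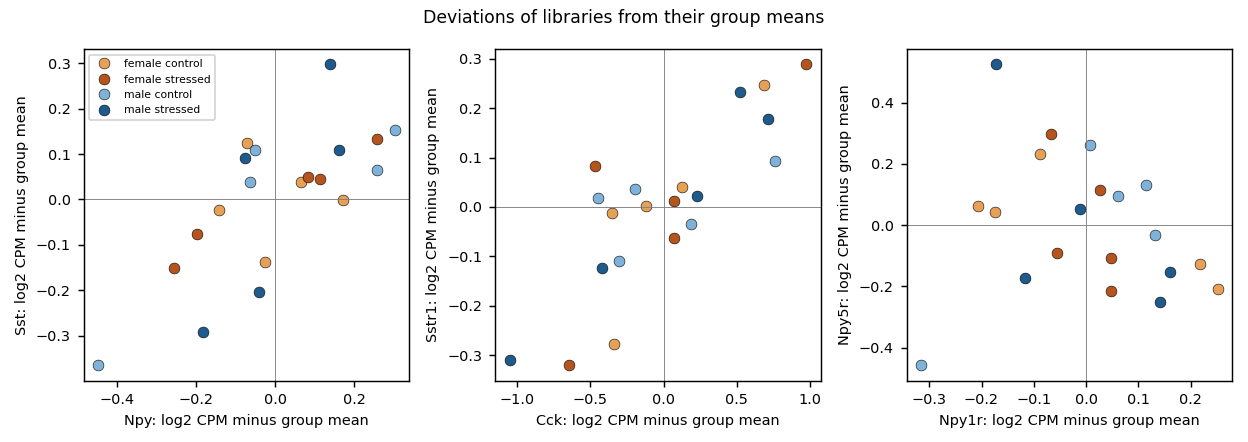
Deviations from the group mean (log2 CPM) of Sst against Npy, Sstr1 against Cck and Npy5r against Npy1r, with a point for each of the 20 libraries coloured by group. The first pair (r = 0.727) and the second (r = 0.822) rise together, whereas the third (r = -0.185) shows no such line.

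Of all 36 pairs of members, 6 had an r with an adjusted permutation p under 0.05, and r ranged from -0.574 to 0.822. These 6 were Npy with Sst, Npy1r with Sst, Npy2r with each of Sst, Sstr1 and Cckbr, and Sstr1 with Cck. By rho, Npy2r with Sstr1 and Npy2r with Cckbr did not pass (adjusted permutation p = 0.0874 and 0.0974). Without stressed female 5 and stressed male 3, farthest from the median of Npy2r, its r with Sstr1 fell from 0.714 to 0.469. Its r with Sst fell from 0.635 to 0.583 and that with Cckbr from 0.640 to 0.610. Without control male 3 and control female 3, r of Npy1r with Sst fell from 0.646 to 0.503. Of all genes, 0.439% to 3.59% had an r at least as high with a gene of these pairs. The share of all pairs of genes was not computed. The highest r was that of Sstr1 with Cck (rho = 0.732, permutation p of r and rho adjusted over 36 pairs 0.0054 and 0.0392, r = 0.746 without 2 libraries). For it the shares were 1.07% with Sstr1 and 0.631% with Cck. These 2 genes also shared the astrocyte and thalamic marker relations given above. Single libraries were low for most members at once. Control male 3 was the lowest of its group for 8 of 9 members and stressed female 5 for 8 of 9, and stressed male 3 for 6 of 9. The share of all genes for which each of these libraries was lowest was not computed. Whether these counts are particular to the members is therefore not known. Stressed female 5 and stressed male 3 had the highest striatal marker sums of their groups (5600 and 5640 CPM), whereas control male 3 had 2620 CPM, within the 2510 to 3170 CPM of its group. The part of the dissection in these shared deviations was not tested.

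The genes whose deviations were most like those of each member were different for each. For Npy they were Sgta, Mapk3 and Rab11b (r = 0.843, 0.841 and 0.824, n = 20 libraries), for Sst Bnip5, Rpn2 and Pex14 (0.868, 0.833 and 0.831), and for Cck Aldh3b2, Frem3 and Ecel1 (0.923, 0.915 and 0.909). Npy1r was most like Txndc16, Tifab and Tmem106b (r = 0.850, 0.839 and 0.834), Npy2r like Camk2d, Gpr101 and Ipcef1 (0.848, 0.843 and 0.841), and Npy5r like Mir568, Ido1 and Ciao3 (0.795, 0.783 and 0.779). Sstr1 had the closest match of all, Tmem130 (r = 0.930), followed by Cd99l2 (0.927) and Celf6 (0.925). Sstr2 was most like Entpd6, Szrd1 and Tmub1 (r = 0.833, 0.805 and 0.778), and Cckbr like Pcdh18, Npas1 and Csrnp3 (0.864, 0.850 and 0.795). These are the highest of each member's Pearson correlations with all other genes of the table and are given without a test. Their Spearman rho ran from 0.504 (Cckbr with Csrnp3) to 0.938 (Sstr1 with Tmem130). It was well under r for some, as for Cckbr with Pcdh18 (0.553) and Npy2r with Camk2d (0.659).

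Few of the enzymes and signalling genes that make or relay these peptides passed the test. Of 25 genes for processing and breakdown of peptides, 24 had a row, and 1 of them passed in 1 of the 5 comparisons, sex in controls, where 0.747% of all genes passed. Pcsk2, the proprotein convertase that cuts prosomatostatin and pro-CCK, was lower in control males (160 ± 11.4 CPM) than in control females (214 ± 25.8 CPM), by -0.42 (SE 0.10, adjusted p = 0.0400). Of the 21 genes of the Gi/o pathway, Rgs4, which speeds the shut-off of Gi and Gq signals, was the 1 that passed, in the same comparison, at 241 ± 18.8 against 368 ± 83.1 CPM, a difference of -0.60 (SE 0.13, adjusted p = 0.0337). Both calls ended with the striatal score as a covariate (adjusted p = 0.270 for Pcsk2 and 0.249 for Rgs4) and without control female 5 (0.136 and 0.126). They also ended with the replicate number as a block (0.0885 and 0.0569), although the replicate numbers did not pair the libraries, as given below. The sex difference ran beside the striatal markers, whose 14 of 14 genes had negative values in controls, with a median of -0.59. The medians of the 2 lists were -0.07 for processing and -0.04 for Gi/o, beside 0.0002 for all genes.

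No gene of these lists passed for stress. In stressed males the smallest p were those of Pcsk2 (0.41, adjusted p = 0.0871) for processing, Adcy1, an adenylyl cyclase (0.26, adjusted p = 0.0997), for Gi/o, Itpr1, the calcium release channel of the endoplasmic reticulum (0.67, adjusted p = 0.0871), for the Gq list, and Calb1, the calcium buffer calbindin (0.34, adjusted p = 0.0871), for genes of interneurons that make these peptides. In that comparison 14 of 14 striatal markers had positive values, with a median of 0.59, and with the striatal covariate the 4 differences were 0.15 for Pcsk2, 0.17 for Adcy1, 0.12 for Itpr1 and 0.19 for Calb1. Of the Gq list 12 of 13 genes and of the interneuron list 22 of 24 had a row, and 0 of them passed in any comparison. Median log2 differences for stress in males were 0.04 for processing, -0.01 for Gi/o, 0.08 for Gq and -0.04 for interneuron genes, beside -0.01 for all genes. In females they were 0.0015, -0.0029, -0.04 and -0.10, beside -0.0011. These counts, 0 of each list, equal or lie near the shares of all genes called by the same rule (0.0077% in males and 0% in females).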

How the data were processed

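RNA from 20 pools of adBNST tissue (3 mice each) was sequenced as stranded mRNA libraries, per the labels' protocols. STAR, featureCounts and build mm10 are named without versions in the submitters' processing notes, and their settings, including use of strand, were not given in the sources used here. The authors deposited raw counts for 12988 genes. No gene of the table had a total under 1002, and filterByExpr kept all of them. Totals were 2707881 to 33595388 counts, and precision is lowest in the shallowest library.

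Counts were TMM-scaled and tested with edgeR 4.0.16 in R 4.3.3 (quasi-likelihood fit, one mean for each of the 4 groups, 5 contrasts, Benjamini-Hochberg over all genes, threshold 0.05). Intervals are 95% with 16 residual degrees of freedom. The fit was first tested on simulated counts with a common spread for all genes and changes larger than those of the members. That test cannot tell how well differences as small as those of the members are found. Log2 CPM used a prior count of 2. Exon lengths came from the GRCm38 (mm10) annotation and promoters from RefSeq. Correlations used log2 CPM centred on group means and two-sided within-group permutation with 100000 resamples. Alternatives were DESeq2 1.42.0, its size factors, no filter, a replicate block, a striatal marker score as covariate (mean log2 CPM of the list), only the groups compared, and leaving out each library. Named genes were the members, their families, list genes that passed or had the smallest p of a list with no call in a comparison (given for stress in males), and the 3 genes most like each member. The members, lists and tests were chosen with earlier results of these data known.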

Additional observations from a re-analysis of the deposited data

Results flagged for a closer look

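Single libraries far from the rest of their group were looked for with Dixon's test in 52 combinations of gene and group, of which chance alone gives about 2.6, and 2 were found. Npy2r in stressed male 3 was at 36 CPM, whereas the other stressed males were at 43.9 to 46.8 CPM, so that the gap was 0.732 of the whole range of the group (critical value 0.71). The stress difference of Npy2r in males, -0.23 with all libraries, was -0.16 without it (adjusted p = 0.394). Sst in control male 3 was at 164 CPM and the other control males at 217 to 235 CPM, a gap of 0.744 of the range. The sex difference of Sst in controls, -0.26 with all libraries, was -0.18 without it (adjusted p = 0.446).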

How the results depend on the processing

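No member reached an adjusted p under 0.05 in any of 799 recomputed values of the 45 member results, and 62 of these turned in sign, 52 of them for results under 0.1 in size on the log2 scale. The number of genes called over the whole table depended far more on the method. DESeq2 called 1 gene for stress in females (against 0), 239 for stress in males (against 1), 248 for sex in controls (against 97) and 22 for the interaction (against 0). With only the groups compared in the fit, 303 genes were called for stress in males and 304 for sex in controls. DESeq2's size factors gave 3 genes for the interaction, and the striatal covariate 3 for stress in females and 1 for the interaction. The filter kept all genes, so leaving it out changed nothing. Leaving out single libraries gave 0 (without stressed male 3) to 129 genes (without stressed male 5) for stress in males, 32 (without control female 5) to 214 (without control female 3) for sex in controls and 0 to 4 (without control female 2) for the interaction.

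With DESeq2 the log2 difference of Cck turned to 0.016 for stress in males and -0.087 for sex in controls. The replicate numbers did not pair the libraries. Deviations of the 30 same-numbered pairs correlated between -0.473 and 0.237, on average at -0.0845, against 0.021 for other pairs, 5 of the 30 were over 0.1, and 1 of 20 libraries correlated best with its own number. With the replicate number as a block 48 genes were called for sex in controls, and Sstr2 for stress in males (0.013) and Cckbr for sex in controls (-0.0064) turned in sign.

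With the striatal score as a covariate the following values turned in sign. For stress in males these were Sstr1 (0.022), Sstr2 (0.087), Cck (0.49), Sstr3 (0.25), Sstr4 (-0.063), Cckar (0.55) and Rgs4 (-0.0039). For the sex difference in controls these were Npy1r (-0.020), Npy5r (0.19), Sstr1 (-0.010), Cck (-0.47), Cckbr (-0.029), Sstr3 (-0.14) and Sstr4 (0.029). For the interaction these were Npy1r (0.039), Sstr1 (0.091), Sstr4 (-0.029) and Cckar (0.62). The causes were not tested.

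Values that turned in sign when 1 library was left out had these ranges, each with the library whose absence moved the value farthest to the other side. For stress in females they were Cckar -0.48 to 0.19 (stressed female 5), Itpr1 -0.21 to 0.048 (stressed female 2), Npy -0.0034 to 0.13 (stressed female 3), Npy2r -0.028 to 0.085 (control female 1), Npy5r -0.055 to 0.12 (stressed female 5), Pcsk2 -0.053 to 0.068 (stressed female 5), Sstr3 -0.17 to 0.023 (stressed female 5) and Sstr4 -0.11 to 0.084 (stressed female 2). For stress in males they were Cck -0.29 to 0.16 (control male 5), Npy5r -0.19 to 0.057 (stressed male 4), Sst -0.069 to 0.077 (control male 3), Sstr2 -0.12 to 0.056 (stressed male 3), Sstr3 -0.093 to 0.071 (stressed male 3) and Sstr5 -0.017 to 0.078 (control male 4). For the sex difference in controls they were Cck -0.20 to 0.18 (control male 5), Cckbr -0.085 to 0.067 (control female 1) and Npy5r -0.10 to 0.034 (control female 2). For the sex difference in stressed mice they were Npy -0.12 to 0.0074 (stressed female 3), Npy1r -0.022 to 0.057 (stressed male 2), Npy2r -0.11 to 0.027 (stressed male 3), Pcsk2 -0.078 to 0.044 (stressed female 5), Sstr1 -0.026 to 0.15 (stressed female 5), Sstr2 -0.030 to 0.15 (stressed male 4) and Sstr4 -0.081 to 0.11 (stressed male 3). For the interaction they were Cck -0.010 to 0.54 (stressed male 4), Cckar -0.54 to 0.12 (stressed female 2), Npy1r -0.13 to 0.0099 (control female 1), Npy5r -0.23 to 0.044 (stressed female 5), Sst -0.0094 to 0.14 (control male 3) and Sstr3 -0.038 to 0.16 (stressed female 5). Cckar, the member of the families with the fewest counts, kept its sign for both sex differences in every such fit. Depth limits the low receptors most. At the lowest count of Npy5r, counting error was 25.8% of the level, and at that of Cckar 50%.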
